A study of Mus musculus with 2 samples.

Results

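The imprinted growth genes described here are 10 genes of 5 imprinted regions of the mouse genome: Dlk1, Meg3, Rian and Mirg, H19 and Igf2, Kcnq1ot1 and Cdkn1c, Peg3, and Plagl1. They were taken by symbol from the 32285 genes listed in the count matrices of a single-cell RNA study of pancreatic tumours, in which each of the 10 had counts. The study asked how a raised level of Mettl3, the catalytic subunit of the complex that methylates adenosines in mRNA, affects pancreatic tumours. EL1 mice are an FVB/N line that carries SV40 large T antigen, an oncogene that inactivates p53 and RB proteins, and firefly luciferase, each behind the elastase I promoter, which is active in pancreatic acinar cells. WTg mice came from crossing EL1 with animals that carry the Mettl3 open reading frame behind the ubiquitous CAG promoter and were made from C57BL/6 (BL/6) eggs, so that WTg tumours carry T antigen and luciferase as well. Tumours of both groups were taken at 6 weeks of age, and each group is 1 library. How many animals, and of which sex, gave each library is not given in the sources used here. The Mettl3 transgene, the strain background and the library cannot be told apart, and with no replicate no difference between EL1 and WTg was tested.

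After filtering on at least 500 genes, at least 1000 unique molecular identifiers (UMIs, each standing for 1 captured RNA molecule) and at most 20% mitochondrial UMIs, 1113 cells of EL1 and 905 of WTg remained, with medians of 26543 and 34836 UMIs. Mettl3 was at 15.1 CPM in EL1 against 66.7 in WTg, where CPM is a gene's UMIs over all UMIs of the same cells, times 1e6. Of 17 clusters of cells, 9 drew at least 90% of their cells from 1 library and held 66.2% of all cells, so most clusters cannot be compared between libraries. The labels call the cells epithelial, but 87 cells were macrophage-like, 17 T or NK-like, 13 B-like and 18 erythroid-like by their markers. The 2 libraries shared 15 cell barcodes, none of them among the filtered cells. Intervals given below are at 95% and cover the counting of molecules only. They leave out the spread between cells and between animals.

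Imprinted genes are transcribed mainly from the copy inherited from 1 parent, and many of them set the growth of the fetus and placenta. Paternally expressed members such as Igf2, Dlk1, Peg3 and Plagl1 encode a growth factor, a transmembrane relative of Notch ligands and zinc finger proteins, whereas the maternally expressed Cdkn1c encodes an inhibitor of cyclin-dependent kinases. Meg3, Rian, Mirg, H19 and Kcnq1ot1 make long non-coding RNAs, of which Kcnq1ot1 is known to silence neighbouring genes on the paternal copy. Pancreatic endocrine cells are known to express several of these genes, Meg3 and Cdkn1c among them. The parental origin of the RNA was not measured here.

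Meg3 (chr12:109541001-109571726), Rian (chr12:109603940-109661716) and Mirg (chr12:109729764-109749460) lie on the + strand in GRCm38, downstream of Dlk1 (chr12:109452823-109463336, + strand). Between Meg3 and Rian lie 32213 bases. The 3 non-coding RNAs are regarded as parts of 1 long maternal transcript that also carries microRNAs, and RefSeq places 54 hairpins with 106 mature microRNAs on this strand between the start of Meg3 and the end of Mirg, a span of 208460 bases. Of these, 2 hairpins lie in Meg3, 3 in Rian and 14 in Mirg. The assay captures polyadenylated RNA at its 3′ end and did not measure mature microRNAs, so the following sequences, from RefSeq on GRCm38.p6, show what the host genes carry. Capitals mark the seed, bases 2 to 8, which chooses the targets.

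mmu-miR-770-5p, in an exon of Meg3: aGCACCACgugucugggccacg
mmu-miR-370-3p, in an intron of Rian: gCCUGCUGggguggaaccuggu
mmu-miR-134-5p, in an exon of Mirg: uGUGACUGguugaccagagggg
mmu-miR-410-3p, in an exon of Mirg: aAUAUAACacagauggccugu
mmu-miR-453, in an intron of Mirg: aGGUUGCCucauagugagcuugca
mmu-miR-496a-5p, in an intron of Mirg: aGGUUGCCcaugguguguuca
mmu-miR-675-5p, in the exonic sequence of H19: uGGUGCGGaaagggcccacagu
mmu-miR-483-3p, in an intron of Igf2: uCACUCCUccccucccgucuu

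The seed GGUUGCC of mmu-miR-453 and mmu-miR-496a-5p was the only seed held by more than 1 of the mature microRNAs inside the members. RefSeq promoter windows, from 250 bases before to 50 bases after a start, were at hand for 8 of the 10 members. The window of Meg3 (chr12:109540746-109541045, + strand) is shown because Rian was detected mainly in cells with Meg3. Capitals mark TGACGTCA, the palindromic cAMP response element, and TATAAA, which was found on both strands in overlapping letters.

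Meg3 promoter window: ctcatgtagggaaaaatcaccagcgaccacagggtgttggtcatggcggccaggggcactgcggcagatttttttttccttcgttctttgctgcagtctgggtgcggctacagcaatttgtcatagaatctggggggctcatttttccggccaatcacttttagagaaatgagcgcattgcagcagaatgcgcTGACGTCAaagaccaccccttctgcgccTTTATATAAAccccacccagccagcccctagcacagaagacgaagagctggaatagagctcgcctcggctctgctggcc

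Over all 32851 windows of the table, read on both strands, 1.79% held TGACGTCA and 13.6% held TATAAA. The Meg3 window held 13 CpG sites, and 62.1% of windows held fewer. The Rian window held none. A match of letters is not evidence of binding.

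Across all cells, the members fell into those with like levels in both libraries, those higher in WTg and those higher in EL1. With a log2 fold of WTg to EL1 of at least 1 in size taken as past the fold, H19 and Igf2 were past it in WTg, Peg3 and Plagl1 in EL1, and 6 members lay between. Of the 16167 genes with at least 10 UMIs, 10.1% were past the fold toward WTg and 6.90% toward EL1, and their median log2 fold was -0.14, against 0.17 over the 10 members. The 10 are too few to set apart from that background.

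**Figure D1:**
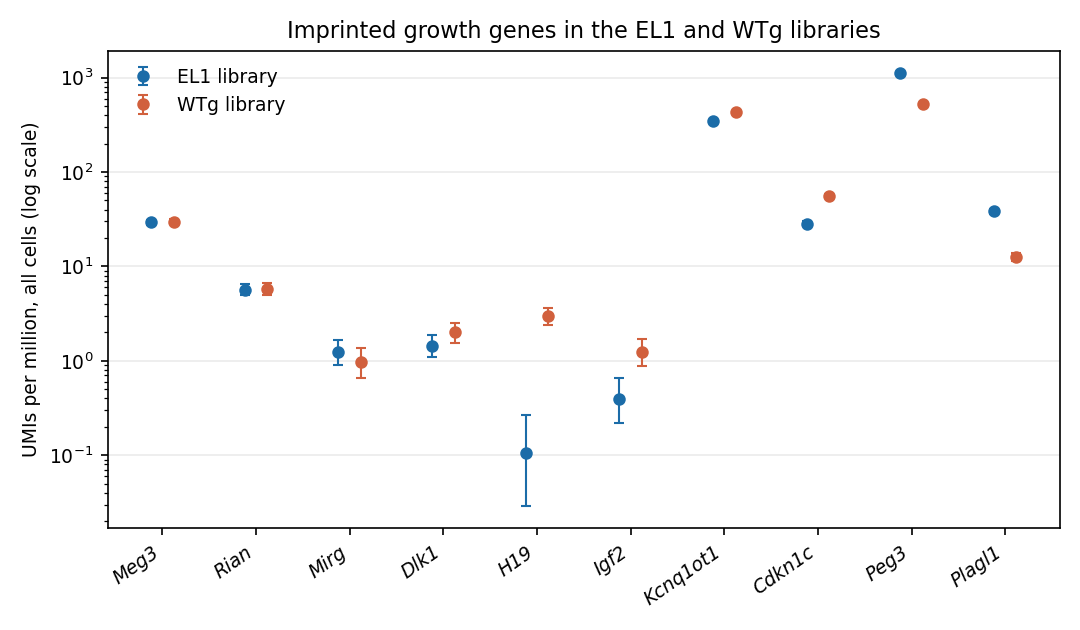
Level of each imprinted growth gene in CPM over all filtered cells (vertical axis, log scale) in the EL1 library (1113 cells) and the WTg library (905 cells). Points are sums over cells and bars are exact 95% Poisson intervals, which are smaller than the points for the genes with many counts. H19 and Igf2 lie higher in WTg, Peg3 and Plagl1 lie higher in EL1, and Meg3 and Rian lie at like levels.

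The non-coding RNAs of the Dlk1-Meg3 region had nearly the same level in the libraries as wholes. Meg3 had 1110 UMIs in EL1 (29.2 CPM, 27.5 to 31.0) and 985 in WTg (29.8 CPM, 28.0 to 31.8), which differed by 0.03 on the log2 scale (-0.10 to 0.15). Rian had 216 and 189 UMIs, with a log2 fold of 0.01 (-0.28 to 0.30), and Mirg 47 and 32 UMIs, with a log2 fold of -0.35 (-1.05 to 0.33). The interval of each of these 3 ratios included 0. With each cell weighted equally the log2 folds were 0.60 for Meg3 and 0.81 for Rian, so the near-equal levels hold for summed UMIs.

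This level came from few cells. In EL1, 143 cells (12.8%) held a Meg3 UMI and 78 cells held 90% of its UMIs, with up to 58 UMIs in a cell. In WTg, 82 cells (9.06%) held one and 38 cells held 90%, with up to 75 in a cell. After each cell was thinned to 2000 UMIs, 3.62% of EL1 cells and 2.87% of WTg cells held Meg3. Genes whose UMI total lay within 20% of that of Meg3 were found in a median of 540 cells in EL1 and 451 in WTg, and 0.957% and 0.923% of them were found in fewer cells than Meg3. No Meg3 UMI was seen in the macrophage-like cells, 0 of 40 in EL1 and 0 of 47 in WTg, which by 3 counts of the total allows shares of cells with a UMI of up to 7.5% and 6.38% and sets no limit on cells that express it. These macrophage-like cells had medians of 6882 and 18381 UMIs, lower than the libraries as wholes.

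Rian was detected mainly in cells with Meg3. Before thinning, Rian was detected in 62 of 143 Meg3 cells of EL1 (43.4%, 35.1 to 51.9) against 1.86% of the other cells, and in 35 of 82 Meg3 cells of WTg (42.7%, 31.8 to 54.1) against 1.09%. Of all Rian UMIs, 90.7% in EL1 and 94.7% in WTg lay in Meg3 cells. Meg3 cells were deeper, with a median of 41951 UMIs against 25126 in EL1 and 38132.5 against 34250 in WTg. At an equal depth of 10000 UMIs, the shares were 21.7% against 1.06% in EL1 and 33.3% against 0.760% in WTg. At 2000 UMIs they were 3 of 38 cells (7.89%, 1.66 to 21.4) against 0.987% in EL1 and 4 of 24 cells (16.7%, 4.74 to 37.4) against 0.369% in WTg. The difference in detection was present at each of these depths in both libraries, on small numbers at 2000 UMIs. A further thinning to 1000 UMIs left Rian in only 9 EL1 and 6 WTg cells, and its shares are not given here.

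The share with Rian followed the Meg3 count of the cell. In EL1 it was 1.86% with no Meg3 UMI, 9.38% with 1, 31.4% with 2 to 4, 70.0% with 5 to 9 and 72.5% with 10 or more. In WTg it was 1.09%, 0%, 16.7%, 33.3% and 87.5% over the same steps, of which the step from 5 to 9 holds 9 cells. Across cells with at least 10000 UMIs, the Pearson correlation of log-scaled Meg3 and Rian was 0.63 over 943 cells of EL1 and 0.82 over 703 of WTg. The cells of a library share its preparation and free RNA. Among 13128 and 13023 genes, Rian ranked first by correlation with Meg3 in both libraries. Without thinning, Rian was also more frequent in Meg3 cells in 10 of 10 groups of cells with at least 10 Meg3 cells. The shares were 20% to 72.7% in Meg3 cells and 0% to 2.96% in the others. Depth was not made equal within the groups.

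**Figure D2:**
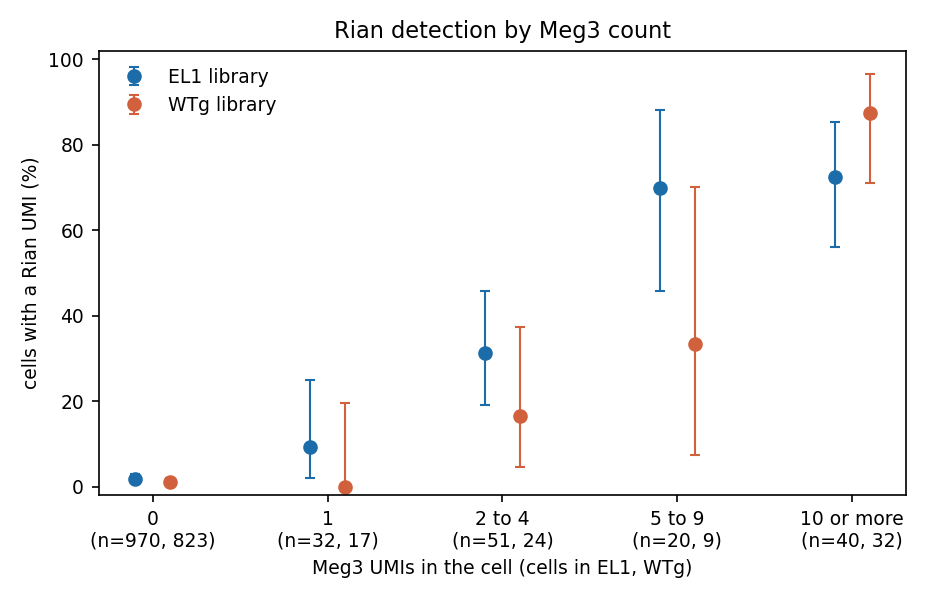
Share of cells with a Rian UMI (vertical axis, percent) by the number of Meg3 UMIs in the cell (horizontal axis, with the numbers of cells in EL1 and WTg) without thinning. Bars are exact 95% Clopper-Pearson intervals. The share is 1.86% and 1.09% in cells without Meg3 and 72.5% and 87.5% in cells with 10 or more Meg3 UMIs.

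Mirg and B830012L14Rik were also more frequent in Meg3 cells before thinning. B830012L14Rik, a non-coding RNA between Rian and Mirg (chr12:109695586-109702587, + strand) that was singled out after its values were seen, was found in 14.7% of Meg3 cells against 1.96% of the others in EL1 and in 15.9% against 1.70% in WTg. Mirg was found in 13.99% against 1.65% in EL1 and in 15.9% against 1.34% in WTg. At an equal depth of 10000 UMIs, B830012L14Rik was in 5.43% (1.79 to 12.2) against 0.823% (0.331 to 1.69) in EL1 and in 8.89% (2.48 to 21.2) against 0.608% (0.166 to 1.55) in WTg. Mirg at this depth was in 3.26% (0.678 to 9.23) against 0.823% (0.331 to 1.69) in EL1, where the intervals overlapped, and in 8.89% (2.48 to 21.2) against 0.152% (0.00385 to 0.844) in WTg. At 2000 UMIs each of the 2 genes was found in 1 Meg3 cell of each library. Dlk1, the protein-coding gene that is expressed from the opposite parental copy, was found in 3.50% of Meg3 cells against 0.722% in EL1 and in 3.66% against 2.31% in WTg, without thinning, and these intervals overlapped in both libraries. Rtl1, a retrotransposon-derived gene on the opposite strand between Meg3 and Rian, had 1 UMI in EL1 and 7 in WTg. All 3 of Meg3, Rian and Mirg were found in 17 cells of EL1 and 10 of WTg.

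**Figure D3:**
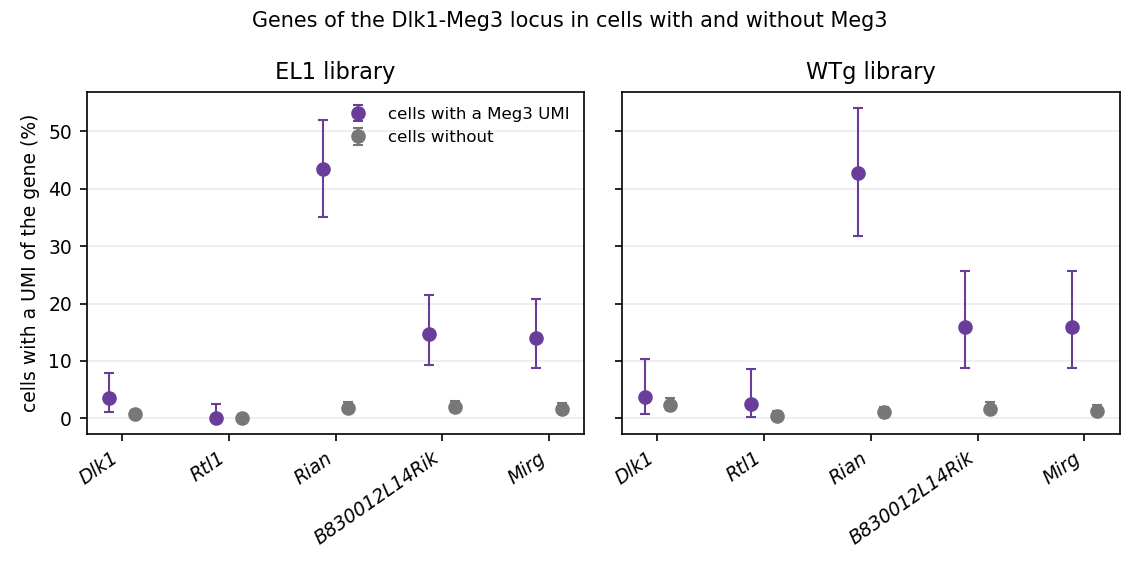
Share of cells (vertical axis, percent, no thinning) with a UMI of each gene from Dlk1 to Mirg that was detected, in genome order, among cells with a Meg3 UMI (143 in EL1, 82 in WTg) and cells without one. Bars are exact 95% Clopper-Pearson intervals. Rian, B830012L14Rik and Mirg lie higher in Meg3 cells in both libraries without thinning, while the intervals for Dlk1 overlap.

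Summed over all cells of a library, Rian had 19.5 UMIs for each 100 of Meg3 in EL1 (16.7 to 22.5) and 19.2 in WTg (16.3 to 22.4). Among groups, the cycling WTg cells of cluster 8, led by histone genes and Top2a, had 5.02 (2.64 to 8.74), with 75 of their 259 Meg3 UMIs in 1 cell, and the WTg cells of cluster 6 had 55.6 (32.6 to 92.6), or 25 against 45. The summed proportion differed between these groups, but in cluster 6 of WTg nearly all Rian UMIs lay in 1 cell. The intervals count UMIs and not cells, so a difference between groups of cells was not shown. The neuroendocrine-like cells of cluster 0 in EL1 had 33.3 Mirg UMIs per 100 of Meg3 (18.4 to 57.7), or 18 against 54, whereas the library had 4.23 (3.09 to 5.67). The Meg3 level of cluster 0 was 6.89 CPM, below the 29.2 CPM of all EL1 cells.

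Dlk1 encodes a single-pass membrane protein that restrains differentiation in several progenitor cells. Its 55 UMIs of EL1 came from 12 cells and its 66 UMIs of WTg from 22 cells. The levels of 1.45 and 2.00 CPM differed by 0.46 on the log2 scale (-0.07 to 1.01). A single EL1 cell held 36 of the 55 UMIs, and without the top cell of each library the log2 fold was 1.45. Neuroendocrine-like cells held most of its UMIs: 45 lay in 5 cells of cluster 0 of EL1 and 49 in 11 cells of cluster 3 of WTg. The EL1 cell with 36 UMIs was 1 of these 5 cells. Cluster 2 of EL1 also had 5 Dlk1 cells, with 7 UMIs. The top WTg cell held 21 of the 66 UMIs, so the ratio depended on the top cell of each library.

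Next, the libraries were compared within the neuroendocrine-like class, which is named from markers such as Chga and Pcsk2 and holds 273 EL1 and 166 WTg cells. Different clusters supply it: 245 of the EL1 cells are of cluster 0, led by Resp18, Penk and Tff3, and 157 of the WTg cells are of cluster 3, led by Serpina1c and Pcsk2. Of the 10 members, 4 were past the fold toward WTg and 1 toward EL1, where 5.95% and 6.92% of 13202 genes were. Meg3 had 57 UMIs (6.64 CPM) in EL1 and 257 (39.9 CPM) in WTg, with a log2 fold of 2.59 (2.17 to 3.03), which was 1.21 with coarser clusters. Rian had 15 and 68 UMIs, with a log2 fold of 2.60 (1.77 to 3.51). In all other cells pooled the ratios were of opposite sign, at -0.39 (-0.53 to -0.25) for Meg3 and -0.59 (-0.92 to -0.25) for Rian. Clusters 6 and 13, outside the class with at least 20 cells of each library, had the sign of the class. Their log2 folds were 2.45 (1.35 to 3.75) and 0.82 (0.07 to 1.58) for Meg3 and 3.02 and 1.97 for Rian. In cluster 13 all 41 Meg3 and all 14 Rian UMIs of WTg lay in 1 of 31 cells. Of the 42 EL1 cells there, 5 held Meg3 and 4 held Rian, so this fold is that of 1 WTg cell. So the near-equal levels of the whole libraries were made of unequal groups.

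Cluster 3 was the neuroendocrine-like cluster present in both libraries, with 28 EL1 and 157 WTg cells. There Meg3 had 3 UMIs in EL1 and 255 in WTg, a log2 fold of 3.37 (1.81 to 5.66). In WTg these came from 22 cells, with 45 in the highest. In cluster 6, a group of shallow barcodes led by Malat1, Kcnq1ot1 and Gm26917 (medians of 1794 and 1947 UMIs), Meg3 was at 43.8 CPM in EL1 and 240 in WTg, from 8 and 45 UMIs. Malat1, an abundant nuclear RNA, was at 69955 CPM in EL1 and 104794 in WTg there, and its part in the result was not tested. Of the 25 Rian UMIs of WTg in cluster 6, 23 were in 1 cell. By level, the WTg cells of cluster 6 stood above the next group, cluster 8 of WTg (53.4 CPM). From there down to cluster 1 of WTg (12.8 CPM), the interval of each group overlapped that of the next.

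**Figure D4:**
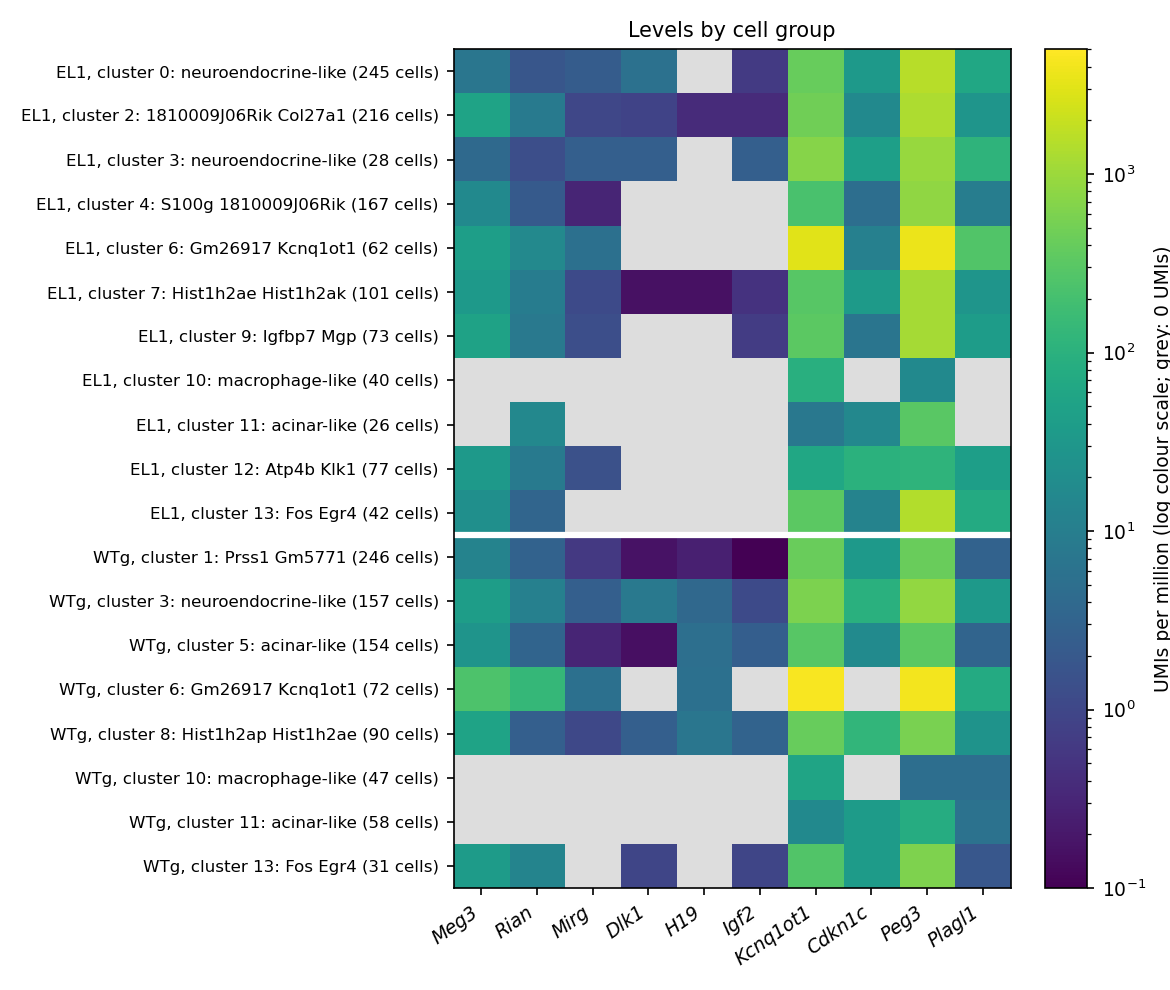
Level of each imprinted growth gene (columns) in CPM, as colour on a log scale, in the 19 groups of at least 20 cells formed by cluster and library (rows, with leading genes or marker-based name and cell number). Grey marks groups with 0 UMIs. Peg3 and Kcnq1ot1 had at least 1 UMI in all groups, and the macrophage-like groups of both libraries had 0 UMIs of 7 members.

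H19 and Igf2 share enhancers, with the non-coding H19 made from the maternal copy and the growth factor Igf2 from the paternal copy. H19 (chr7:142575529-142578143, - strand) had 4 UMIs in EL1, in 3 cells, and 98 in WTg, in 40 cells. These were 0.105 CPM (0.0287 to 0.270) and 2.97 CPM (2.41 to 3.62), with a log2 fold of 4.82 (3.41 to 6.72). Igf2 (chr7:142650766-142666816, - strand) had 15 UMIs in EL1, in 11 cells, and 41 in WTg, in 22 cells, and the log2 fold was 1.65 (0.77 to 2.61). Both genes were rare, and in WTg 1 cell held 14 of the H19 UMIs and 1 cell held 10 of the Igf2 UMIs. Igf2 overlaps the antisense gene Igf2os, and Igf2os itself had 2 UMIs and 1.

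In WTg, H19 was spread over cluster 8 (34 UMIs in 15 cells), the acinar-like cluster 5 (34 in 14 cells) and the neuroendocrine-like cluster 3 (24 in 6 cells). Cluster 1, with 246 WTg cells led by Prss1 and Sycn, had 3. In the neuroendocrine-like class H19 had 0 UMIs in EL1 and 26 in WTg, at least 11.6-fold higher in WTg with 3 counts put in for EL1. Igf2 was detected in 8 of 40 H19 cells of WTg (an interval of 9.05% to 35.6%) against 1.62% of the others, without thinning. At 10000 UMIs this was 2 of 13 cells, and in EL1 none of the 3 H19 cells had Igf2. The neighbours Mrpl23, a mitochondrial ribosomal protein gene, and Lsp1, a leukocyte protein gene, had log2 folds of -0.26 and 0.93.

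Kcnq1ot1 (chr7:143203458-143296549, - strand) is transcribed antisense within Kcnq1, and all of its 93092 bases lie inside that gene. Whether reads were assigned by strand is not given in the sources used here, so reads of the 2 genes may not be told apart. Kcnq1ot1 had 13159 UMIs in EL1, in 931 cells, and 14209 in WTg, in 763 cells. Its level was 347 CPM (341 to 353) and 430 CPM (423 to 438), 0.31 higher in WTg on the log2 scale (0.28 to 0.35). Clusters present in both libraries differed in direction. The log2 fold was -0.21 (-0.34 to -0.07) in cluster 3, -0.73 (-1.31 to -0.13) in cluster 10 and -0.29 (-0.51 to -0.06) in cluster 13. In cluster 6 it was 0.57 (0.41 to 0.72), and cluster 11 had 1 UMI in EL1 and 6 in WTg. Kcnq1, a potassium channel gene, had 583 and 519 UMIs and a log2 fold of 0.03 (-0.14 to 0.21). Across cells with at least 10000 UMIs the 2 were correlated at -0.18 in EL1 and -0.07 in WTg.

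The level of Kcnq1ot1 went with that of Malat1 at both ends of the groups of cells. The 2 highest groups for both were those of cluster 6, where Kcnq1ot1 reached 3013 CPM (EL1) and 4462 CPM (WTg), and the 2 lowest for both were the shallow acinar-like cells of cluster 11, at 7.76 and 17.3 CPM. Among groups of deeper cells, Kcnq1ot1 was at 691 CPM in EL1 and 599 in WTg in cluster 3 and at 63.4 CPM in cluster 12 of EL1, led by the gastric proton pump gene Atp4b. Macrophage-like cells had 90.4 and 54.6 CPM of Kcnq1ot1, although Malat1 was at 15670 CPM in those of WTg. Over the 19 groups the genes most like Kcnq1ot1 by Pearson correlation of log2(CPM + 10) were Zbtb20, Ankrd10 and Phf20l1 (0.98, 0.98 and 0.97), and without cluster 6 they were D5Ertd579e, Fndc3a and Zbtb20.

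Cdkn1c (chr7:143458339-143461050, - strand), which restrains the cell cycle through cyclin-dependent kinases, had 1074 UMIs in EL1, in 328 cells, and 1830 in WTg, in 398 cells. These were 28.3 CPM (26.6 to 30.04) and 55.4 CPM (52.9 to 58.0), with a log2 fold of 0.97 (0.86 to 1.08), which was 1.08 under TMM scaling and so past the fold. After thinning to 2000 UMIs, 4.76% of EL1 cells and 9.09% of WTg cells held it. Within the neuroendocrine-like class the log2 fold was 1.47 (1.26 to 1.67), from 34.5 and 95.2 CPM, and in cluster 3 alone it was 1.05 (0.55 to 1.59). In all other cells it was 0.79 (0.66 to 0.92). Cdkn1c was thus higher in WTg inside the class and in the pooled cells outside it. Of the 1217 WTg UMIs outside the class, 610 lay in cluster 8, which holds 90 WTg cells and 1 EL1 cell. In cluster 13, present in both libraries, the log2 fold was 1.61 (0.72 to 2.57), from 15 and 41 UMIs.

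The group with most Cdkn1c was of dividing cells. Cluster 8 of WTg, a cycling group, was highest at 126 CPM (116 to 136), with Cdkn1c in 73 of 90 cells. It was followed by cluster 12 of EL1 at 102 CPM and cluster 3 of WTg at 94.4 CPM, whose intervals overlapped. Cluster 7 of EL1, also led by histone genes and with Ccna2 among its leading genes, ranked only 7 of the 19 groups, at 36.3 CPM (31.7 to 41.4). The lowest level in a group with Cdkn1c was 4.95 CPM, in the S100g-led cluster 4 of EL1. Top2a, a topoisomerase gene of dividing cells, was detected in 22.0% of Cdkn1c cells against 12.2% of the others in EL1 and in 28.9% against 13.6% in WTg at 2000 UMIs. At 10000 UMIs these shares were 43.5% against 23.3% and 40.8% against 24.5%. Top2a was thus more frequent in cells with Cdkn1c than in cells without it at both depths, but at 1000 UMIs WTg had 7.32% against 9.38%.

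Kcnq1ot1 and Cdkn1c themselves, which lie 161789 bases apart and are expressed from opposite parental copies, were related weakly. Cdkn1c was found in 18.6% of Kcnq1ot1 cells against 16.4% of the others in EL1 and in 31.3% against 20.6% in WTg at 10000 UMIs. Their correlation in cells of that depth was 0.02 and 0.20. Of the neighbours, Phlda2, which restrains placental growth, had a log2 fold of 0.95 (0.57 to 1.33) and Slc22a18, a transporter gene, one of 1.03 (0.49 to 1.59). Cd81, Nap1l4 and Osbpl5 had -0.33, -0.29 and -0.55.

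**Figure D5:**
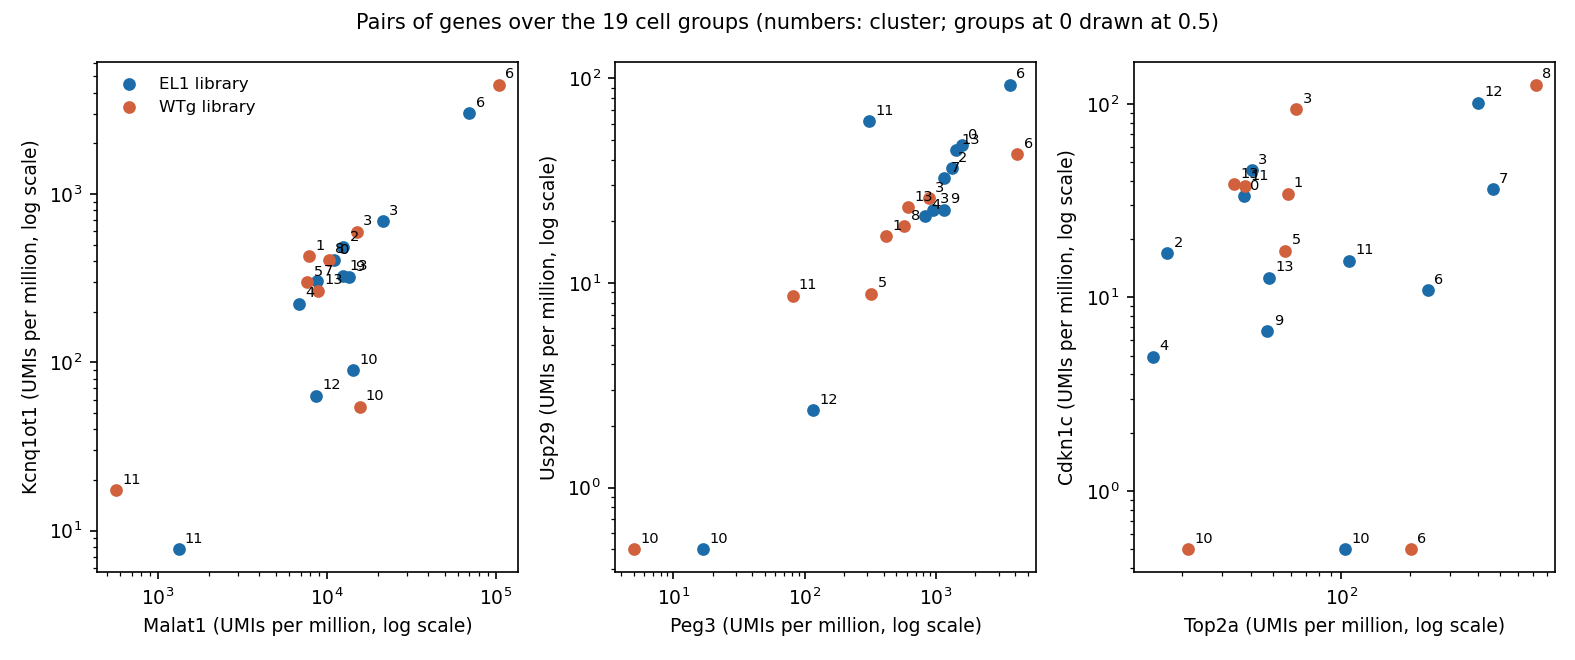
Levels in CPM (both axes, log scale) of Malat1 and Kcnq1ot1, Peg3 and Usp29, and Top2a and Cdkn1c in the 19 groups of at least 20 cells, with the cluster number beside each point and colours for the library. Groups with 0 UMIs are drawn at 0.5. The cluster 6 groups are highest for Kcnq1ot1 (3013 and 4462) and for Malat1 (69955 and 104794), and cluster 8 of WTg is highest for Cdkn1c (126).

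Peg3 (chr7:6703892-6730431, - strand), a paternally expressed zinc finger gene tied to growth and maternal behaviour, was higher in EL1. EL1 held 42681 UMIs of it over 1000 cells, at 1124 CPM (1114 to 1135), and WTg 17284 over 764 cells, at 524 CPM (516 to 532). The log2 fold was -1.10 (-1.13 to -1.08), which lay inside the fold at -0.99 under TMM scaling and at -0.65 with each cell weighted equally. Thinned to 2000 UMIs, 72.0% of EL1 cells and 53.5% of WTg cells held it. The direction was not the same in every group. In cluster 3 the log2 fold was -0.11 (-0.23 to 0.00) and in cluster 6 it was 0.20 (0.05 to 0.35), whereas in cluster 13, led by Fos and Egr4, it was -1.21 (-1.34 to -1.08), from 1415 and 612 CPM.

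Over the groups, the EL1 cells of cluster 0, of cluster 13 and of cluster 2, led by Col27a1 and Fst, had the highest Peg3 levels below cluster 6, at 1576, 1415 and 1329 CPM. Cluster 12 of EL1 had 116 CPM. Macrophage-like cells, a lineage apart, were at 16.9 and 5.06 CPM, from 9 UMIs of EL1 and 5 of WTg. These were the lowest levels of the 19 groups, and the share of free RNA in them was not estimated. The genes most like it over the 19 groups were Limch1, Foxred2 and Tmc5 (0.96, 0.95 and 0.95), and without cluster 6 they were Arl4a, Lurap1l and Retreg1.

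Usp29, a deubiquitinase gene, starts head to head with Peg3, and their GENCODE starts are 147 bases apart. The stretch between their RefSeq starts (chr7:6730420-6730582, read on the - strand, GRCm38.p6) is shown because Usp29 was detected mainly in cells with Peg3. Most cells of both libraries held Peg3. Capitals mark the 5 CpG sites of the stretch.

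Peg3 to Usp29 stretch: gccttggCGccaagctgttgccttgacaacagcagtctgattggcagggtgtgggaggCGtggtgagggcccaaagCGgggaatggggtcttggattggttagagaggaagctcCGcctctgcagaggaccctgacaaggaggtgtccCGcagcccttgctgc

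Over each library as a whole, Usp29 was more frequent in Peg3 cells. It had 1184 and 561 UMIs and a log2 fold of -0.88 (-1.02 to -0.73). It was detected in 9.25% of Peg3 cells against 2.72% of the others in EL1 and in 5.15% against 1.03% in WTg at 2000 UMIs. Without thinning the shares were 53.5% against 3.54% and 36.5% against 3.55%. Cell type was not held equal in this contrast. Peg3 was not detected in 34 of 40 EL1 and 42 of 47 WTg macrophage-like cells, nor in 40 of 77 cells of cluster 12. In cluster 0 of EL1 only 1 of 245 cells lacked it, and in cluster 1 of WTg 6 of 246. Usp29 UMIs per 100 of Peg3 were 2.77 (2.62 to 2.94) in EL1 and 3.25 (2.98 to 3.53) in WTg, intervals that did not overlap. In cells with at least 10000 UMIs the genes were correlated at 0.45 and 0.46. Zim1, the maternally expressed neighbour on the other side, had 1.28 UMIs per 100 of Peg3 (1.17 to 1.39) in EL1 and 2.94 (2.69 to 3.22) in WTg. Its own levels, 14.4 CPM in EL1 and 15.4 in WTg, overlapped in their intervals. Within cluster 3 its UMIs per 100 of Peg3 were 1.41 (0.67 to 2.61) and 3.55 (3.05 to 4.10).

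Plagl1 (chr10:13060504-13131694, + strand), a paternally expressed zinc finger gene known to arrest the cell cycle, was also higher in EL1. EL1 held 1452 UMIs of it over 427 cells, at 38.2 CPM (36.3 to 40.3), and WTg 419 over 104 cells, at 12.7 CPM (11.5 to 13.97). The log2 fold was -1.59 (-1.75 to -1.43). Thinned to 2000 UMIs, 6.85% of EL1 cells and 2.15% of WTg cells held it. Within the neuroendocrine-like class the log2 fold was -1.02 (-1.25 to -0.79), and -0.78 or -0.73 when the cells were clustered more coarsely or more finely.

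In clusters 3, 6 and 13, which were present in both libraries, Plagl1 was lower in WTg. The macrophage-like cells of cluster 10 had 0 UMIs in EL1 and 5, all in 1 cell, in WTg, and the shallow cells of cluster 11 had 0 in EL1 and 2 in WTg. The log2 fold was -1.72 (-2.09 to -1.33) in cluster 3, from 112 and 33.9 CPM, and -1.85 (-2.82 to -0.97) in cluster 6, from 268 and 74.6 CPM. In cluster 13 it was -5.32 (-8.39 to -3.42), where 10 cells of EL1 held 89 UMIs and a single WTg cell held 2. The WTg cells of cluster 1, led by Prss1, and of the acinar-like cluster 5 were at 3.06 and 3.27 CPM. The 6 neighbours of Plagl1 with at least 10 UMIs had log2 folds from -0.46 (Adat2) to -0.05 (Phactr2), so none was past the fold. In its promoter window Plagl1 held 26 CpG sites, and 83.1% of windows held fewer.

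Between loci the correlations of members across cells were mostly low. Over 37 pairs of members from different loci, the median correlation across cells with at least 10000 UMIs was 0.03 in EL1 and 0.08 in WTg. The highest was that of Kcnq1ot1 with Peg3, at 0.41 and 0.47. Many of the pairs include H19, Igf2 or Dlk1, which were in at most 12 cells of EL1 and 40 of WTg. For genes that rare a low correlation says little. Within a locus, H19 with Igf2 had -0.004 and 0.07, whereas Meg3 with Rian had 0.63 and 0.82. Over the 19 groups, Meg3 was most like Pard3b, Mars2 and Cachd1 (0.88, 0.87 and 0.87), Rian most like Cdk20 (0.90), Cdkn1c most like Aimp1 (0.90) and Plagl1 most like Zfp266 (0.91). Without cluster 6 the nearest genes were 9530097N15Rik for Meg3, Men1 for Rian, Idi1 for Cdkn1c and Fam204a for Plagl1, so these lists depended on that cluster.

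Among 29 other imprinted genes with at least 10 UMIs, 6 were past the fold toward WTg, 2 toward EL1 and 21 lay between, with a median log2 fold of -0.02 against -0.14 over all genes, of which 10.1% were past the fold toward WTg and 6.90% toward EL1. Nnat, a proteolipid gene of neuroendocrine cells, had 172 UMIs in EL1 and 673 in WTg (2.17), and Rasgrf1, an exchange factor gene for Ras, had 38 and 333 (3.33). Ppp1r9a had the lowest ratio of those with at least 50 UMIs, at -0.93. Within the neuroendocrine-like class 3 of 25 were past the fold toward WTg and none toward EL1, where 5.95% and 6.92% of all genes were.

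Of 15 genes of the insulin-like growth factor axis, 3 were past the fold toward WTg and none toward EL1, and 12 lay between, beside 10.1% and 6.90% of all genes. The highest were the binding protein genes Igfbp3 and Igfbp7, with log2 folds of 6.49 and 4.03, which in WTg came from 18 and 31 cells. Both are among the leading genes of cluster 9, together with Flt1 of endothelial cells and Dcn of stromal cells, and the part of such cells in these folds was not tested. Irs2, an adaptor of insulin and IGF receptors, had -0.65, and Igf2bp3, which binds Igf2 mRNA, had -0.66. Among 11 genes of Dlk1 and Notch, 4 were past the fold toward WTg and none toward EL1 (10.1% and 6.90% of all genes). The ligand genes Dll1 and Dll4 had 1.59 and 1.93, and the target genes Hes1 and Hey1 had -0.23 and -0.53. Among 11 genes of the cyclin-dependent kinase inhibitor group, 2 were past the fold toward WTg and 1 toward EL1, near the shares of all genes (10.1% and 6.90%). The latter was Cdkn2a, whose products act on the RB and p53 pathways, at 227 CPM in EL1 and 83.1 in WTg (-1.45), while Ccnd1 and Ccnd2, cyclin D genes, had 3.35 and 2.56 from at most 29 cells of a library. Within the neuroendocrine-like class, the counts toward WTg and EL1 were 1 and 3 of 13, 1 and 0 of 9, and 1 and 1 of 9 for these 3 lists, against 5.95% and 6.92% of all genes in the class.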

How the data were processed

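Pancreatic tumour cells of 1 EL1 and 1 WTg library were measured by 10x Genomics 3′ v3.1 single-cell RNA sequencing. The deposited values are raw UMI counts per gene and barcode that the authors made with Cell Ranger 6.0.2 on GRCm38, followed by R 4.1 and Seurat 4.0.5 per the labels. Whether intronic reads were counted is not given in the sources used here. A second deposited file of each sample, a dense count table of 1471 and 1346 barcodes, held the same member counts and served as an alternative. The members and gene lists were chosen with earlier results of these data known.

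The matrices held 1621 and 1488 barcodes, of which 508 and 583 were removed (393 and 440 for over 20% mitochondrial UMIs). Filtered cells held 37961287 UMIs in EL1 and 33007683 in WTg, so that 3 counts, the limit a count of 0 allows, are 0.0790 and 0.0909 CPM. Clusters were made with scanpy 1.11.5 and leidenalg 0.10.2 (2000 variable genes, 30 components, 15 neighbours, resolution 1), leaving out the members, their neighbours, Mettl3, Plk1 and cell cycle genes of Seurat 5.3.0 (R 4.3.3). Names needed at least 3 markers, at a log2 fold of 1 or more and in at least 10% of cells. Scrublet called 4 doublets in each library (0.359% and 0.442%), which were kept. UMIs were summed per library or group and divided by the summed UMIs of those cells (CPM). Exact Poisson, conditional binomial and Clopper-Pearson intervals came from scipy 1.17.1. Correlations across cells used counts scaled to 10000 per cell and log-transformed. Genes named beside the members were each list's 2 highest and 2 lowest ratios with at least 50 UMIs, neighbours with at least 10 UMIs, and for members with at least 200 UMIs the 3 genes most correlated over groups of at least 20 cells. Coordinates come from GENCODE M21, which matched 32235 of 32285 gene IDs. TMM factors came from edgeR 4.0.16. In simulated Poisson sums of 16167 genes, 95.6% of the ratio intervals held the set ratio. The intervals assume this same model, and the simulation had no spread between cells, so it does not test them for genes held by few cells. Alternatives were other cell filters, scalings, clusterings and depths, the dense table, and 4 chosen after seeing the data (without cluster 6, without the top cell of a gene over all cells and within the class, and joint detection in unthinned cells without doublets and cells over 10000 genes).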

Additional observations from a re-analysis of the deposited data

Results flagged for a closer look

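The log2 fold of WTg to EL1 had opposite signs in neuroendocrine-like cells and in all other cells pooled for Meg3 and Rian. In clusters 6 and 13, outside the class, it had the sign of the class, in cluster 13 with all WTg UMIs of both genes in 1 cell. The fold in the class minus that in the other cells was 2.98 for Meg3 and 3.18 for Rian. The Meg3 fold in the class was 2.59 and fell to 1.21 with coarser clusters. With 1 library per group the difference was not tested, and the class is made of different clusters in the 2 libraries.

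Barcodes left out of the comparisons also held counts of the members. In the 583 WTg barcodes that failed the filter, Rian was at 16.6 CPM (31 UMIs), against 4.13 CPM in the failed barcodes of EL1 and 5.73 CPM in the WTg cells that passed. Kcnq1ot1 was at 1479 CPM in the failed barcodes of WTg and at 1332 CPM in those of EL1. Malat1 was at 34563 and 46872 CPM there.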

How the results depend on the processing

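No paired analysis was possible because EL1 and WTg are 1 library each, and for the same reason no replicate could be left out. The share of cells with a UMI depended on depth. For Meg3 in EL1 it was 3.62% at 2000 UMIs, 2.43% at 1000, 9.76% at 10000 and 12.8% without thinning, and in WTg it was 2.87% at 2000, 6.40% at 10000 and 9.06% without thinning. The share of Meg3 cells with Rian was 7.89% at 2000, 21.7% at 10000 and 43.4% without thinning in EL1, and 16.7% and 42.7% without thinning in WTg. Without doublets and cells over 10000 genes, a setting chosen after seeing the data, the unthinned shares were 43.3% and 41.25%. The number of members past the fold was 4 over all cells and 3 to 5 under the alternatives, and 5 in the neuroendocrine-like class and 4 to 6 under the alternatives. No member past the fold changed sign under an alternative. TMM scaling moved all log2 folds by 0.11. Meg3 and Rian over all cells were at 0.60 and 0.81 when all cells had equal weight. In the class, Meg3 was at 1.21 with coarser clusters, and Dlk1 and Igf2 at -0.16 and 2.66 with finer ones. A minimum of 50 UMIs per gene in place of 10 left 923 genes past the fold toward WTg and 618 toward EL1, against 1636 and 1116. Of 31 alternative values of these main results 21 stayed within the interval of the reported value, or within 1.5 times for counts, and 10 moved. Of the others 357 stayed and 139 moved. Depth limits Mirg, Dlk1, H19 and Igf2, which were seen in at most 40 cells of a library.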
